A study of Homo sapiens with 12 samples.

Results

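The laminin-binding integrin subunits and their anchoring partners are described here in A549 cells, an established human lung adenocarcinoma line that grows attached to plastic. They are the 8 rows of the gene count table named ITGA3, ITGA6, ITGA7, ITGB4, PLEC, DST, COL17A1 and CD151, out of 58735 rows, and all 8 were among the 17829 genes that passed the filter on low counts. The study asked what GFI1, a transcription repressor of blood cell development, does to lung cancer cells with and without contact to a surface. Poly-A RNA was sequenced from 12 libraries in 4 groups of 3: attached control cells, attached GFI1-expressing cells, floating control cells and floating GFI1-expressing cells. GFI1 was delivered by a lentivirus that also encodes GFP and carries a PGK promoter, and sorted GFP+ cells were used for sequencing. The study's methods give the control A549 cells of its animal assays an empty vector, and the labels of the libraries name no vector for their controls. The floating groups were kept in suspension on ultra-low attachment plates for 48 hours, the attached groups received no treatment, and all groups grew in RPMI1640 with fetal bovine serum. No label says that the 3 libraries of a group came from separate cultures, so the p values measure the spread between these libraries, which may be technical.

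Integrins are pairs of an alpha and a beta subunit that span the plasma membrane. Laminins, the cross-shaped proteins of basement membranes, are bound by integrins α3β1, α6β1, α7β1 and α6β4. The α6β4 pair is the core of the hemidesmosome, where the long tail of β4 meets the plakins plectin and BPAG1 inside the cell and collagen XVII in the membrane, so that keratin filaments are tied to laminin-332. The tetraspanin CD151 binds laminin-binding integrins from the side. β4 pairs only with α6, whereas α6 pairs with β1 or β4.

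Total counts ran from 17014188 to 20748677 per library. GFI1 served as a check of the labels: it had 4 to 12 counts in each of the 6 control libraries and 5154 to 12796 in each of the 6 GFI1 libraries. In floating GFI1 cells GFI1 stood at 544.6, 705.5 and 430.2 CPM in replicates 1, 2 and 3, against 285.6 to 294.4 CPM in attached GFI1 cells. All 6 epithelial markers examined (EPCAM, CDH1, KRT7, KRT8, KRT18 and KRT19) were above 3 counts in every library. Their summed level differed between the groups, with 10390 to 10990 CPM in attached control and 6529 to 6938 in floating control libraries. GFI1 libraries held 4222 to 4339 CPM when attached and 3039 to 3411 when floating. The 6 markers did not move alike from attached control to attached GFI1 cells. Mean CPM went from 119.8 to 6.45 for CDH1, 2.25 to 0.608 for EPCAM and 2077 to 1772 for KRT7. It went from 5769 to 1853 for KRT8, 2670 to 662.5 for KRT18 and 1.115 to 1.969 for KRT19. Markers of other cell types were low in every library, with sums of 4.73 to 14.7 CPM for 5 blood cell markers, 0.109 to 5.52 for 4 endothelial markers and 5.52 to 14.1 for 5 fibroblast markers. CD3E and DCN were at 0 counts throughout, and the endothelial sum was 0.109 to 0.662 CPM in control and 3.55 to 5.52 in GFI1 libraries. The part of these shifts in the results below was not tested, and in bulk RNA fewer cells of a type cannot be told apart from less RNA per cell. Floating GFI1 replicate 3 stood apart from its group on the second principal component (-13.6 against -20.6 and -23.9), and values without it are given beside the member results that move.

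With GFI1 in attached cells, 6 members rose and 2 fell, and in none of the 8 did the CPM of the 2 groups overlap. Over all genes tested, 29.5% were called higher, 32.8% were called lower, and 67% had groups that did not overlap, so such calls were common in this comparison. These shares depend on the scaling: scaled by library size alone in place of TMM, the attached comparison gave 7001 upward and 4375 downward calls (5258 and 5844 with TMM). The floating comparison gave 6840 and 4308 (5223 and 5547 with TMM), and no member changed its call or direction under this scaling in any of the 5 comparisons. In floating cells 5 members rose, 2 fell and 1, ITGB4, did not pass the test, with 7 not overlapping. Without floating GFI1 replicate 3, ITGB4 passed too and 6 members rose. The shares over all genes were 29.3% higher, 31.1% lower and 64.4% not overlapping. Suspension raised 3 members and lowered 2 in control cells, with 5 not overlapping, where 19.6% of all genes rose, 20.5% fell and 49.9% did not overlap. In GFI1 cells suspension also raised 3 and lowered 2, with 4 not overlapping, where 15% of all genes rose, 16.3% fell and 41.4% did not overlap. Without floating GFI1 replicate 3, that comparison held 1 higher and 1 lower member. The GFI1 effect differed between floating and attached cells for 3 members, 1 upward and 2 downward, where 4.76% and 6.01% of all genes did so. Without floating GFI1 replicate 3 there were 2 upward, CD151 being the second, and 2 downward. The median log2 fold changes of the 8 members in these 5 comparisons were 0.41, 0.31, 0.08, 0.18 and -0.02, beside medians over all genes of -0.0066, 0.011, 0.011, 0.0017 and -0.0036. The 4 pairwise comparisons share groups with each other, so they are not independent.

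**Figure D1:**
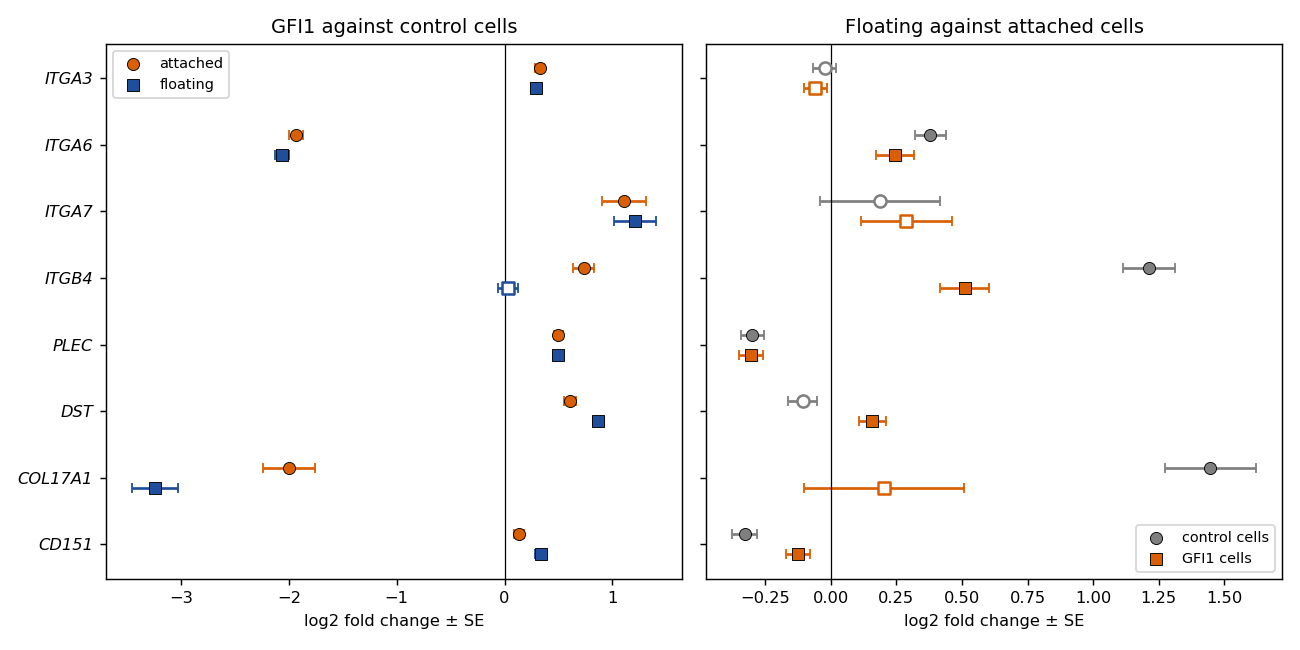
Log2 fold change ± SE of each member, on the left for GFI1 against control cells (circles attached, squares floating) and on the right for floating against attached cells (circles control, squares GFI1). Filled symbols passed an adjusted p of 0.05 and open ones did not: ITGA6 and COL17A1 lie left of 0 on the left, and ITGB4 and COL17A1 lie farthest right in control cells on the right.

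ITGA6 encodes the α6 subunit, the partner that β4 needs (chromosome 2, 172427354 to 172506282, plus strand, GRCh38). Its level in CPM (counts scaled to library size with TMM factors) was 134.8, 138.8 and 131.9 in attached control libraries and 34.3, 32.4 and 39.6 in attached GFI1 libraries. In floating cells it was 173.8, 173.0 and 180.6 in control libraries and 37.0, 42.3 and 46.3 in GFI1 libraries. Every GFI1 library lay far below every control library, whether attached or floating. The log2 fold change was -1.93 ± 0.066 (SE) in attached cells, a level 3.82-fold lower (adjusted p = 1.19e-18). When the cells floated it was -2.07 ± 0.064, a level 4.19-fold lower (adjusted p = 1.96e-19). The difference between these effects was -0.13 ± 0.092, with a 95% interval from -0.31 to 0.05 (adjusted p = 0.421). Suspension raised ITGA6 in control cells by 0.38 ± 0.058 on the log2 scale (adjusted p = 8.61e-06). Floating GFI1 libraries overlapped attached ones, at 0.24 ± 0.071 (adjusted p = 0.00955). This last call was lost without floating GFI1 replicate 3 (0.16, adjusted p = 0.078) and without attached GFI1 replicate 2 (0.19, adjusted p = 0.0852). The A and B splice forms of the α6 tail share 1 row of counts and were not separated.

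ITGA6 and COL17A1, the members that fell with GFI1, are shown with the DNA before their start sites, taken from the RefSeq promoter table of GRCh38.p14. It held entries for 3 of the 8 members (ITGA6, DST and COL17A1), with 6 windows in all. The 250 bases before each start were searched on both strands for AATC, the core of the GFI1 motif, for TGACTCA, the AP-1 site, and for ACGTG, the core of the hypoxia response element. These letters were present in 64.8%, 4.2% and 18.5% of the windows of the same length over 35116 promoter entries. AATC occurred 4 times before the COL17A1 start and 0 times before either ITGA6 start. It also occurred before 2 of the 3 starts of DST, which rose with GFI1, with 2 matches and 1 match. ACGTG occurred 2 times before the upstream ITGA6 start, on both strands of the same palindrome, 1 time before the other ITGA6 start and 2 times before the third DST start. No window of a member held the AP-1 letters. The first stretch below is chr2:172427086-172427335 on the plus strand, up to the base before the upstream ITGA6 start, with ACGTG and its reverse in capitals. The second is chr10:104085958-104086130 on the minus strand, from 250 to 78 bases before the COL17A1 start, with AATC and its reverse in capitals. A match, or the lack of one, is a description of the letters only. The study's ChIP-Seq in A549 cells expressing tagged GFI1 lists ITGA6 among the genes that GFI1 bound and that fell. Its promoter peaks were annotated to a large number of genes, and both genes that rose and genes that fell with GFI1 were among them. Binding was not examined here.
ITGA6: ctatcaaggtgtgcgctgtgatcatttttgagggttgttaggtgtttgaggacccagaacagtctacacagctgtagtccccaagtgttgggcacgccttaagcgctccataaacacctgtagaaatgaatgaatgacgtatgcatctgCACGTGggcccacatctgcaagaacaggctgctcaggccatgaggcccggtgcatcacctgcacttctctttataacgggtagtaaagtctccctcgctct
COL17A1: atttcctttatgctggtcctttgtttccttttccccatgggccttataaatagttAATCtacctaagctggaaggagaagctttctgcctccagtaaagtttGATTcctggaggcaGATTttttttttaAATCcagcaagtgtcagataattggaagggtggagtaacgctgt

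ITGA3 encodes the α3 subunit, which pairs with β1 (chromosome 17, 50055968 to 50090481, plus strand). Attached control libraries held 579.5, 573.8 and 595.4 CPM and attached GFI1 libraries held 723.1, 734.7 and 732.3 CPM. Floating control libraries held 591.1, 577.3 and 552.9 CPM and floating GFI1 libraries held 698.4, 743.3 and 659.9 CPM. GFI1 libraries lay above control libraries without overlap in both states, by 0.32 ± 0.044 on the log2 scale when attached (adjusted p = 5.23e-07) and by 0.29 ± 0.044 when floating (adjusted p = 3.44e-06). With suspension the groups overlapped in control cells (-0.023 ± 0.044, 95% interval -0.11 to 0.06, adjusted p = 0.727) and in GFI1 cells (-0.060 ± 0.044, interval -0.15 to 0.03, adjusted p = 0.337). So α3 moved with GFI1 in the direction opposite to α6, and no change of α3 with suspension was detected with all 12 libraries. Without floating GFI1 replicate 2 its change with suspension in GFI1 cells was -0.12 (adjusted p = 0.0444).

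ITGA7 encodes the α7 subunit, best known from muscle (chromosome 12, 55684568 to 55716043, minus strand). It was scarce, with 29 to 114 counts per library. Its CPM was 1.73, 2.82 and 1.89 in attached control, 5.52, 4.80 and 3.71 in attached GFI1, 2.13, 2.11 and 3.12 in floating control, and 6.07, 5.35 and 5.67 in floating GFI1 libraries. Both pairs of control and GFI1 groups were apart. The rise with GFI1 was 1.11 ± 0.20 on the log2 scale for attached libraries (adjusted p = 4.20e-05) and 1.21 ± 0.20 for floating libraries (adjusted p = 8.34e-06). Suspension gave 0.19 ± 0.23 in control cells (adjusted p = 0.564) and 0.29 ± 0.17 in GFI1 cells (adjusted p = 0.231), with overlapping groups. ITGA7 shares 44 exonic bases, 0.48% of its exons, with METTL7B on the opposite strand, which had 65 to 251 counts. Other genes on that strand share 8 and 6 bases with ITGA7. The strand setting of the counting is not stated.

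**Figure D2:**
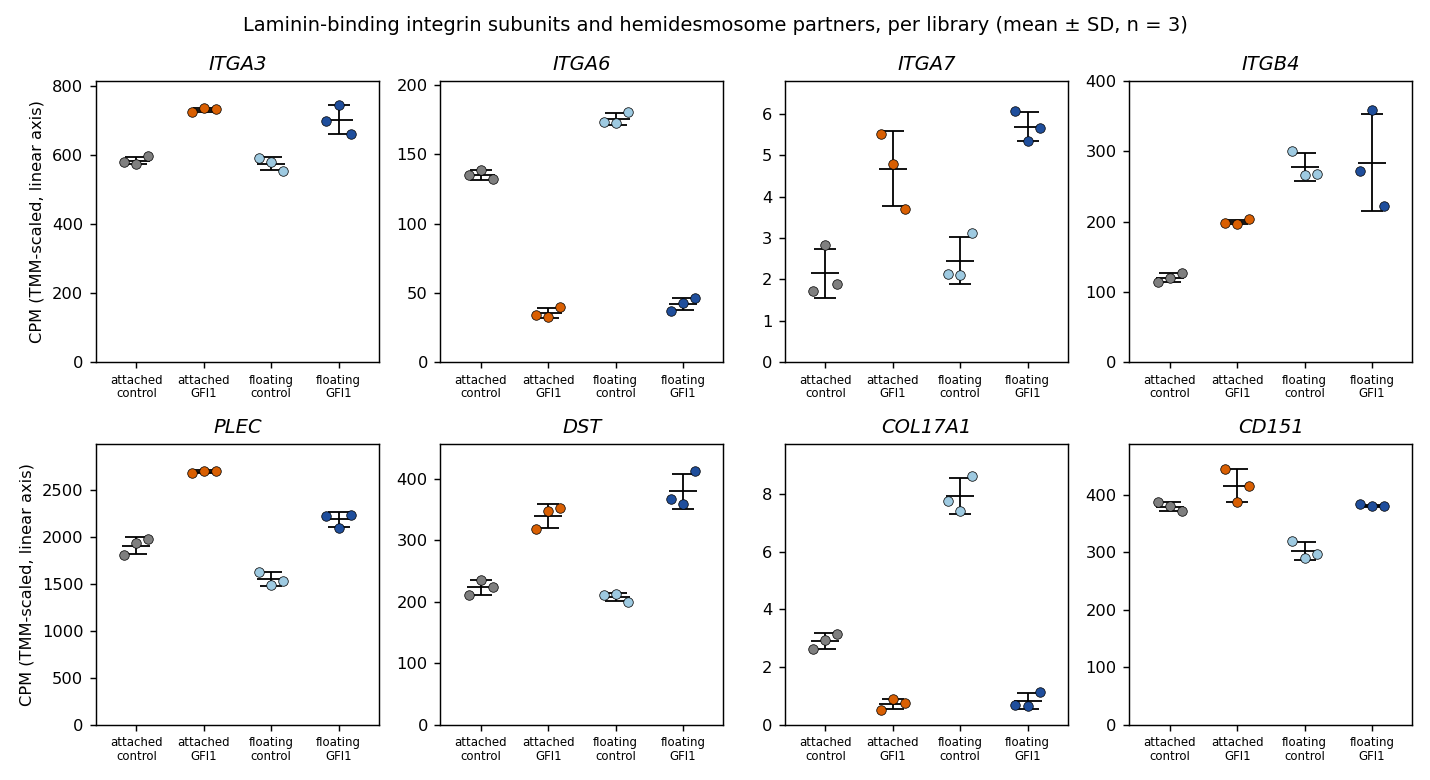
CPM of the 8 members in each of the 12 libraries (points), with the mean and SD of the 3 libraries of a group (bars), on linear axes that start at 0. ITGA6 and COL17A1 are high in both control groups and low in both GFI1 groups, and ITGB4 runs from 222.7 to 358.4 CPM in floating GFI1 libraries.

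The make-up of the laminin-binding alpha subunits was compared per length, as FPKM (CPM per kilobase of the gene length given in the file). ITGA6 made up 25.7% ± 0.81 (SD, n = 3) of the summed FPKM of ITGA3, ITGA6 and ITGA7 in attached control cells and 6.72% ± 0.67 in attached GFI1 cells. In floating cells its share was 31.4% ± 1.17 in control and 8.16% ± 1.12 in GFI1 libraries. ITGA3 made up the bulk of the rest, with 73.9% and 92.4% in attached control and GFI1 cells and 68.2% and 90.7% in floating ones. ITGA7 reached at most 1.22% in any library. The summed FPKM of the 3 alpha subunits was 80.5 ± 0.65 in attached control and 80.6 ± 0.74 in attached GFI1 libraries. With the file's lengths these groups thus held alike sums with different make-up. The sum was 85.8 ± 1.36 in floating control and 78.8 ± 4.01 in floating GFI1 libraries. With the length of the longest transcript in place of the file's length, the ITGA6 shares were 17.9%, 4.34%, 22.3% and 5.30% in attached control, attached GFI1, floating control and floating GFI1 cells. With that length ITGA3 stood at 106 and ITGA6 at 23.2 FPKM in attached control cells, and at 133 and 6.09 in attached GFI1 cells. ITGA3 then rose by more than ITGA6 fell, so the sums of the attached groups were not alike with that length. From floating control to floating GFI1 cells ITGA3 went from 105 to 128 and ITGA6 from 30.2 to 7.20 FPKM. The shares and sums describe RNA, and no test was run on them.

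**Figure D3:**
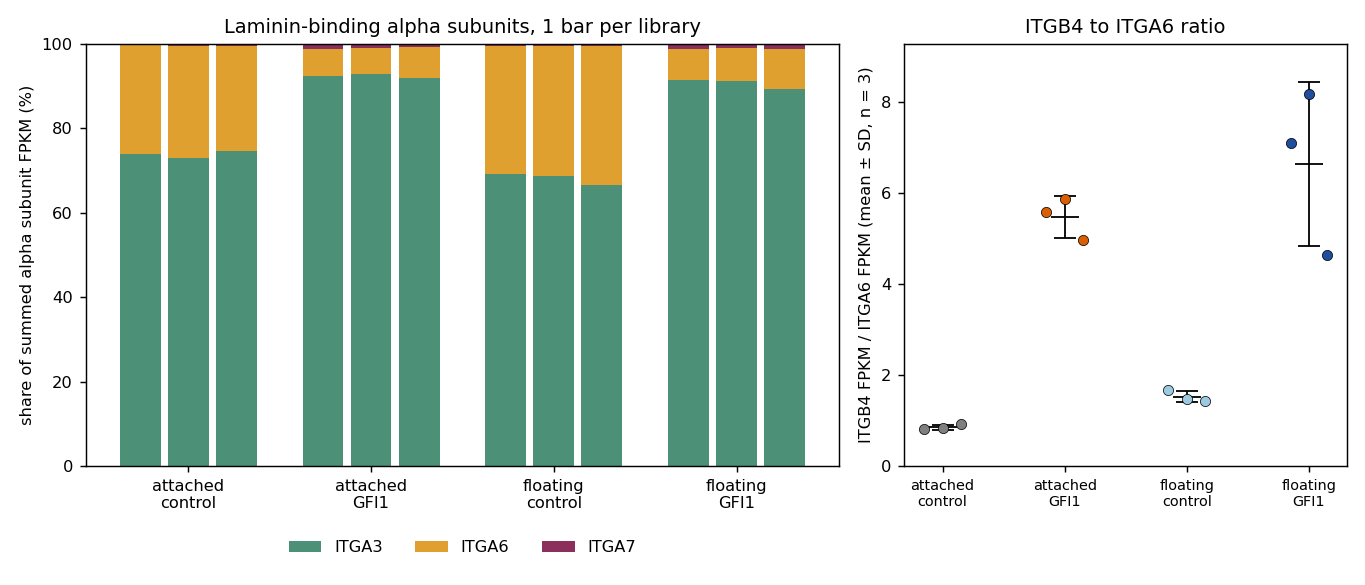
Left, the share of ITGA3, ITGA6 and ITGA7 in their summed FPKM, 1 bar per library. Right, the ratio of ITGB4 to ITGA6 FPKM per library (points) with the mean and SD (bars): control libraries lie between 0.814 and 1.67 and GFI1 libraries between 4.65 and 8.18.

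ITGB4 encodes the β4 subunit (chromosome 17, 75721328 to 75757818, plus strand). Attached control libraries held 113.6, 119.8 and 126.4 CPM and attached GFI1 libraries held 198.0, 197.1 and 203.2 CPM. Floating control libraries held 300.6, 266.3 and 267.1 CPM, while floating GFI1 libraries were spread over 271.4, 358.4 and 222.7 CPM. Suspension raised ITGB4 in control cells by 1.21 ± 0.098 on the log2 scale, a 2.32-fold rise (adjusted p = 2.71e-10). In GFI1 cells the rise was 0.51 ± 0.095 (adjusted p = 0.000156), and it ran from 0.29 to 0.66 when 1 library was left out. GFI1 raised ITGB4 in attached cells by 0.73 ± 0.098, or 1.66-fold (adjusted p = 4.56e-07). In floating cells the GFI1 effect was 0.031 ± 0.094, with a 95% interval from -0.15 to 0.22 and overlapping groups (adjusted p = 0.796). That value rested on single libraries: it was -0.17 without floating GFI1 replicate 2 (adjusted p = 0.0159) and 0.18 without replicate 3 (adjusted p = 0.0249). The difference between the GFI1 effects in floating and attached cells was -0.70 ± 0.14 (adjusted p = 0.000909), or -0.55 without replicate 3 (adjusted p = 9.22e-05). With robust empirical Bayes its adjusted p was 0.0785. In the 3 floating GFI1 libraries, ITGB4 and GFI1 were both highest in replicate 2 and lowest in replicate 3, and the part of the GFI1 level in the spread of ITGB4 was not tested.

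With ITGA6 lower and ITGB4 not lower, the ratio of ITGB4 to ITGA6 FPKM was higher in GFI1 cells. It was 0.858 ± 0.059 in attached control, 5.47 ± 0.47 in attached GFI1, 1.53 ± 0.13 in floating control and 6.64 ± 1.81 in floating GFI1 libraries. No GFI1 library overlapped a control library in this ratio, and floating control libraries lay above attached control libraries. ITGB1, the other partner of α6, stayed the more abundant beta subunit per length, with an ITGB1 to ITGB4 FPKM ratio of 23.9 ± 1.20, 11.2 ± 0.31, 10.8 ± 0.85 and 7.54 ± 1.90 in the same order. ITGB1 fell with GFI1 by 0.36 ± 0.040 on the log2 scale when attached (adjusted p = 1.47e-08) and by 0.54 ± 0.040 when floating (adjusted p = 1.04e-11). In attached cells its CPM was 2534 to 2557 in control and 1935 to 2019 in GFI1 libraries, and in floating cells 2578 to 2741 and 1795 to 1879.

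PLEC encodes plectin, the plakin that links β4 to keratin filaments (chromosome 8, 143915147 to 143976734, minus strand). Per kilobase of the length given in the file, it was the most abundant member in every group, and with the longest transcript's length CD151 stood above it in every group. Its CPM was 1811, 1940 and 1982 in attached control, 2687, 2709 and 2710 in attached GFI1, 1634, 1493 and 1534 in floating control, and 2229, 2101 and 2240 in floating GFI1 libraries. No 2 of the 4 groups overlapped. GFI1 raised PLEC by 0.50 ± 0.045 on the log2 scale in the attached state (adjusted p = 3.76e-10) and by 0.50 ± 0.045 in the floating state (adjusted p = 4.79e-10). Suspension lowered it by 0.30 ± 0.045 in control cells (adjusted p = 5.70e-06) and by 0.30 ± 0.044 in GFI1 cells (adjusted p = 7.16e-06). The difference between the GFI1 effects was -0.0048 ± 0.063, with a 95% interval from -0.13 to 0.12 (adjusted p = 0.981).

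DST encodes dystonin, whose epithelial form BPAG1e is the other hemidesmosomal plakin (chromosome 6, 56457987 to 56954628, minus strand). The count row pools this form with the neuronal and muscle forms. DST stood at 211.5, 236.0 and 223.5 CPM in attached control, 318.2, 348.8 and 353.5 in attached GFI1, 210.8, 212.3 and 200.2 in floating control, and 366.8, 359.7 and 413.1 in floating GFI1 libraries. GFI1 libraries were higher throughout, by 0.61 ± 0.054 on the log2 scale when attached (adjusted p = 3.69e-10) and 0.87 ± 0.054 when floating (adjusted p = 3.36e-13). The effect was larger in floating cells by 0.27 ± 0.076 (adjusted p = 0.0235), or 0.20 without floating GFI1 replicate 3 (adjusted p = 0.0449). Leaving out 1 of 4 other libraries (attached control 2 or 3, attached GFI1 1, floating control 3) gave 0.23 to 0.27 and an adjusted p between 0.0502 and 0.0875. With suspension DST had a log2 fold change of -0.11 ± 0.055 in control cells (adjusted p = 0.128) and 0.16 ± 0.053 in GFI1 cells (adjusted p = 0.0233). The latter was 0.094 without floating GFI1 replicate 3 (adjusted p = 0.154) and 0.12 without attached GFI1 replicate 1 (adjusted p = 0.169).

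COL17A1 encodes collagen XVII, the transmembrane collagen of the hemidesmosome (chromosome 10, 104031286 to 104085957, minus strand). It was scarce, with 9 to 152 counts per library. Its CPM was 2.62, 2.93 and 3.16 in attached control, 0.507, 0.877 and 0.751 in attached GFI1, 7.77, 7.40 and 8.61 in floating control, and 0.662, 0.662 and 1.14 in floating GFI1 libraries. Floating control libraries were the highest, and the attached and floating GFI1 libraries overlapped at the bottom. Suspension raised COL17A1 in control cells by 1.45 ± 0.17 on the log2 scale, or 2.73-fold (adjusted p = 2.33e-07). Between the GFI1 groups suspension gave 0.20 ± 0.31 (95% interval -0.40 to 0.80, adjusted p = 0.674), or -0.13 without floating GFI1 replicate 3. GFI1 lowered COL17A1 by 2.00 ± 0.25 in the attached state (adjusted p = 1.07e-07) and by 3.24 ± 0.21 in the floating state, to a level 9.47-fold lower (adjusted p = 9.62e-13). The effects differed by -1.24 ± 0.36 (adjusted p = 0.0240), and by -1.57 without floating GFI1 replicate 3 (adjusted p = 0.00558). When attached GFI1 2 or 3, floating control 3, or floating GFI1 1 or 2 was left out, the difference lay between -1.05 and -1.21 and its adjusted p between 0.0516 and 0.124.

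CD151 encodes the tetraspanin that associates with laminin-binding integrins (chromosome 11, 832843 to 839831, plus strand). Its CPM was 387.3, 380.0 and 371.6 in attached control, 444.9, 388.3 and 414.9 in attached GFI1, 319.9, 290.6 and 297.0 in floating control, and 383.3, 380.8 and 380.0 in floating GFI1 libraries. Floating control libraries were the lowest, and the lowest attached GFI1 library lay barely above the highest attached control library. Suspension lowered CD151 in control cells by 0.33 ± 0.048 on the log2 scale (adjusted p = 3.83e-06), and GFI1 raised it in floating cells by 0.33 ± 0.048 (adjusted p = 1.17e-06). The GFI1 effect in attached cells was 0.13 ± 0.047 (adjusted p = 0.0180). It was lost without attached control replicate 3 (0.11, adjusted p = 0.0834) or attached GFI1 replicate 1 (0.083, adjusted p = 0.163). Between the GFI1 groups suspension gave -0.13 ± 0.047 (adjusted p = 0.0451), and this call was lost without any 1 of 7 libraries, among them floating GFI1 replicate 3 (-0.12, adjusted p = 0.0614) and attached GFI1 replicate 1 (-0.073, adjusted p = 0.318). The GFI1 effects differed by 0.20 ± 0.067 (adjusted p = 0.0524), or 0.21 without floating GFI1 replicate 3 (adjusted p = 0.0403). CD151 shares 257 exonic bases, 6.6% of its exons, with POLR2L on the opposite strand, which had 2880 to 4750 counts. The strand setting and the handling of reads in shared bases are not stated, so how the overlap moved the CD151 count is not known.

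Per length, the order of the members changed with GFI1. In attached control cells the mean FPKM was 112 for PLEC, 96.4 for CD151, 59.5 for ITGA3, 20.7 for ITGA6, 17.7 for ITGB4, 5.28 for DST, 0.411 for COL17A1 and 0.337 for ITGA7. The last pair overlapped between libraries, and the other neighbours did not. In attached GFI1 cells ITGB4 (29.5 FPKM) and DST (8.03) stood above ITGA6 (5.42), and ITGA7 (0.734) stood above COL17A1 (0.101), with no overlap between neighbours. Floating control cells held ITGB4 at 41.1, ITGA6 at 26.9 and DST at 4.91 FPKM, and floating GFI1 cells held them at 42.0, 6.41 and 8.97. PLEC, CD151 and ITGA3 kept the first 3 places in each group. Their order depends on the length used: with the longest transcript, a choice made after seeing the data, CD151 and PLEC stood at 204 and 125 FPKM in attached control, 224 and 177 in attached GFI1, 163 and 102 in floating control, and 205 and 144 in floating GFI1 cells. In floating control cells ITGA3 (105) then stood above PLEC with overlapping libraries, and in attached control cells ITGA7 and COL17A1 changed places within their overlap. DST counts are divided by a pooled length of all its forms, so its FPKM is low for its counts.

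The genes whose log2 CPM followed ITGA6 most closely over the 12 libraries, among 13761 protein-coding genes tested, were CEACAM6 (Pearson r = 0.998), SPDEF (0.997) and ATP2B1 (0.996). For ITGB4 they were ZKSCAN1 (0.984), KHNYN (0.983) and ABTB1 (0.979). Among the members, COL17A1 had r = 0.958 with ITGA6, and ITGA3 (-0.964), DST (-0.946), PLEC (-0.910) and ITGA7 (-0.874) ran opposite to it. CD151 had -0.748 and ITGB4 had -0.220 with ITGA6. With ITGB4 the other members ran from -0.38 (CD151) to 0.45 (ITGA7). The libraries fall into 4 groups, which these values share, so they are a description with no test.

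LAMA3 and LAMB3 encode an alpha and a beta chain of laminin-332, the ligand of α6β4 and α3β1. LAMA3 was 75.9 to 85.5 CPM in attached control, 151.3 to 159.6 in attached GFI1, 73.1 to 75.9 in floating control and 98.5 to 102.6 in floating GFI1 libraries. It rose with GFI1 by 0.92 ± 0.047 on the log2 scale when attached (adjusted p = 5.48e-15) and by 0.44 ± 0.048 when floating (adjusted p = 1.51e-08). LAMB3 was 41.3 to 41.9, 43.3 to 45.3, 73.2 to 82.5 and 45.6 to 49.3 CPM in the same order of groups. Suspension raised LAMB3 in control cells by 0.88 ± 0.054 (adjusted p = 1.58e-12), and GFI1 lowered it in floating cells by 0.68 ± 0.053 (adjusted p = 2.23e-11), with 0.082 ± 0.055 in attached cells (adjusted p = 0.203). The attached value depended on the scaling. It passed under upper quartile scaling (0.13, adjusted p = 0.0368) and with library size alone (0.23, adjusted p = 0.000751). With GFI1 in floating cells LAMA3 thus rose and LAMB3 fell.

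Of the 43 other genes of the pathway that were listed, 39 were tested. GFI1 gave 11 calls upward and 19 downward in the attached state, where 29.5% and 32.8% of all genes were called, and 12 upward and 21 downward in the floating state, where 29.3% and 31.1% were. Suspension gave 8 higher and 19 lower in control cells (19.6% and 20.5% of all genes) and 10 higher and 16 lower in GFI1 cells (15% and 16.3%). Among 11 laminin chains tested, 3 rose and 4 fell with GFI1 in attached cells and 3 rose and 6 fell in floating cells (list medians 0.082 and -0.36 on the log2 scale). LAMA4 had 25 to 38 counts in attached control libraries and 0 counts in each attached GFI1 library, at least 11.1-fold lower against a floor of 3 counts per library, and the attached median was 0.082 with LAMA4 at that bound. LAMB2 rose by 1.36 ± 0.043 in attached cells (adjusted p = 3.42e-19), while LAMB1, the chain it can replace in the trimer, had -1.84 ± 0.047 (adjusted p = 3.88e-21). Of the 5 non-integrin laminin receptors, 1 rose and 2 fell in attached cells and 2 rose and 2 fell in floating cells. BCAM, the Lutheran receptor for laminin α5, fell by 0.83 ± 0.044 and 0.78 ± 0.046 in attached and floating cells (adjusted p = 1.41e-14 and 9.12e-14). Of the 7 tetraspanins and partners, 1 rose and 4 fell in each state. PTGFRN, a membrane partner of CD9 and CD81, fell by 2.05 ± 0.056 in attached cells (adjusted p = 1.26e-20), and CD63 rose by 0.30 ± 0.042 (adjusted p = 6.57e-07).

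Other basement membrane proteins numbered 7, of which 4 rose and 3 fell with GFI1 in both attached and floating cells (medians 0.65 and 0.68). Over all genes tested, 29.5% rose and 32.8% fell with GFI1 in attached cells, and 29.3% and 31.1% in floating cells. In attached cells the lowest adjusted p upward belonged to NID2, a linker of laminin and collagen IV (3.03 ± 0.081, adjusted p = 8.29e-21). Downward it belonged to COL4A1, a chain of collagen IV itself (-2.52 ± 0.050, adjusted p = 2.41e-23). With suspension in control cells 0 of these proteins rose and 6 fell, where 19.6% of all genes rose and 20.5% fell. COL4A1 had the lowest adjusted p among them (-0.80 ± 0.046, adjusted p = 5.23e-13). Among the 5 other plakins, 1 rose and 3 fell with GFI1 in attached cells and 2 rose and 3 fell in floating cells. PPL, which encodes periplakin of the cornified envelope, rose by 2.34 ± 0.082 in attached cells (adjusted p = 2.03e-18), and MACF1, the plakin that links actin and microtubules, had -1.01 ± 0.056 (adjusted p = 2.86e-14). Of the keratins that plectin binds, KRT5 and KRT14, the basal epithelial pair, did not pass the filter. KRT8 and KRT18, the pair of simple epithelia, both fell with GFI1, and KRT18 had -2.01 ± 0.049 when attached (adjusted p = 1.31e-21) and -1.89 ± 0.049 when floating (adjusted p = 5.39e-21). KRT19, with an adjusted p of 0.0314 and 0.82 ± 0.32 in attached cells, lost its call without any 1 of 4 libraries.

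Suspension effects on the same lists are given for each cell type, with the called genes of lowest adjusted p. Over all genes tested, 19.6% rose and 20.5% fell with suspension in control cells, and 15% and 16.3% in GFI1 cells. Of the laminin chains, 2 rose and 3 fell in control cells, with LAMB3 given above, and 3 rose and 3 fell in GFI1 cells, with LAMB2 (0.25 ± 0.042, adjusted p = 4.83e-05) and LAMA3 (-0.63 ± 0.046, adjusted p = 9.60e-11) upward and downward. In control cells the fall of LAMC1 (-0.12, adjusted p = 0.0414) lost its call with DESeq2 (adjusted p = 0.0593) and under RLE scaling (adjusted p = 0.0668). The fall of LAMA3 there (-0.15, adjusted p = 0.0154) lost its call without attached control replicate 2 or 3 or floating control replicate 2 or 3 (adjusted p from 0.0515 to 0.0838). Of the 5 non-integrin receptors, 1 rose and 4 fell in control cells and 3 fell in GFI1 cells. BCAM had -0.44 ± 0.044 and -0.39 ± 0.046 (adjusted p = 9.18e-09 and 2.51e-07), and SDC4, a syndecan, had 0.32 ± 0.087 in control cells (adjusted p = 0.00467). The SDC4 call was lost with robust empirical Bayes (adjusted p = 0.0809). CD9, a tetraspanin that also sits beside integrins, rose by 0.29 ± 0.044 and 0.40 ± 0.045 (adjusted p = 8.01e-06 and 1.44e-07). Its list had 2 higher and 3 lower in control cells and 3 higher and 1 lower in GFI1 cells. Downward, CD81 was named in control cells (-0.21 ± 0.044, adjusted p = 0.000303) and PTGFRN in GFI1 cells (-0.24 ± 0.066, adjusted p = 0.00593). The PTGFRN call was lost without attached GFI1 replicate 3 (-0.19, adjusted p = 0.0653). HSPG2, which encodes the basement membrane proteoglycan perlecan, fell in GFI1 cells by 0.90 ± 0.052 (adjusted p = 1.52e-12), where 5 genes of its list fell and 1 rose, NID1 (0.44 ± 0.16, adjusted p = 0.0328). The NID1 call was lost with DESeq2 (adjusted p = 0.0624) and without attached GFI1 replicate 2 (0.33, adjusted p = 0.170) or 3 (0.46, adjusted p = 0.0697) or floating GFI1 replicate 1 (0.47, adjusted p = 0.0540) or 2 (0.29, adjusted p = 0.226). Other plakins had 3 higher and 1 lower in each cell type, the lower one being MACF1 in control cells (-0.24 ± 0.055, adjusted p = 0.000833) and EVPL, which encodes envoplakin, in GFI1 cells (-0.20 ± 0.054, adjusted p = 0.00437). The lowest adjusted p upward belonged to PPL in control cells (0.76 ± 0.087, adjusted p = 1.11e-07) and DSP, which encodes the desmosomal plakin desmoplakin, in GFI1 cells (0.74 ± 0.056, adjusted p = 1.47e-10). KRT18 fell in control cells by 0.63 ± 0.047 (adjusted p = 7.48e-11) and in GFI1 cells by 0.50 ± 0.048 (adjusted p = 9.72e-09).

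The GFI1 effect differed between floating and attached cells for 17 of the 39 pathway genes, upward for 10 and downward for 7, where 4.76% and 6.01% of all genes were called. Basement membrane proteins accounted for 4 upward calls, with COL4A1 at 0.45 ± 0.072 (adjusted p = 0.000112). Laminin chains accounted for 2 upward and 4 downward calls, with LAMC1 at 0.32 ± 0.064 (adjusted p = 0.00111) and LAMB3 at -0.77 ± 0.076 (adjusted p = 1.24e-07). Among the other plakins MACF1 had 0.37 ± 0.079 (adjusted p = 0.00248) and EVPL had -0.49 ± 0.074 (adjusted p = 4.64e-05). ITGB1 had -0.17 ± 0.056 (adjusted p = 0.0450), a call that was lost without any 1 of 9 libraries. KRT8 had 0.38 ± 0.071 (adjusted p = 0.000611) and SDC1, another syndecan, had 0.26 ± 0.063 (adjusted p = 0.00766).

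**Figure D4:**
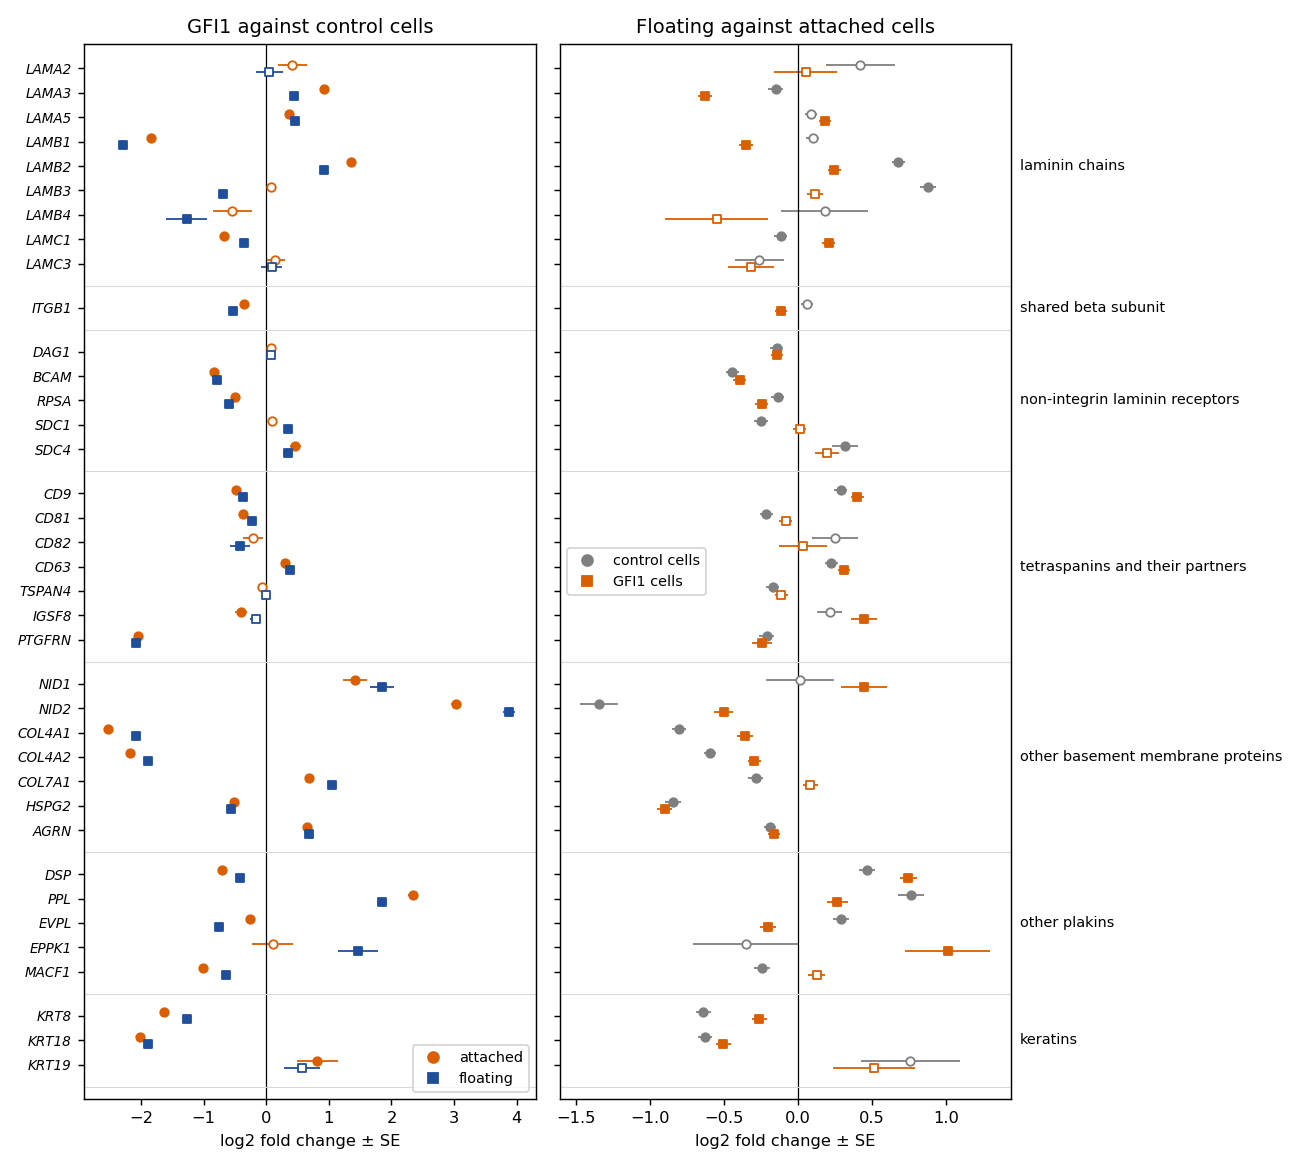
Log2 fold change ± SE of 37 tested genes of the pathway, grouped by list, for GFI1 against control cells (left) and floating against attached cells (right); filled symbols passed an adjusted p of 0.05. Of the 39 tested genes 2 are not plotted, among them LAMA4, which had 0 counts in the attached GFI1 libraries. The laminin and basement membrane lists hold genes on both sides of 0, from COL4A1 (-2.52) to NID2 (3.03) in attached cells.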

How the data were processed

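RNA-Seq was performed by the authors on 4 groups of 3 libraries. Per the study's methods, reads were aligned to GRCh38/hg38 with Hisat2 and assigned with featureCounts, whereas the submitters' processing notes name Bowtie2 and HTSeq; the annotation release and strand setting are not given in the sources used here. The deposited values are raw counts per gene, which the authors did not normalise; gene positions and lengths are those of the same table. In edgeR 4.0.16 (R 4.3.3), filterByExpr (minimum count 10, minimum total count 15) left 17829 genes. Libraries were scaled by TMM, and all 12 entered 1 quasi-likelihood fit with a mean for each of the 4 groups. Tests were two-sided, with Benjamini-Hochberg adjustment over all 17829 genes in each comparison, and a gene was called at an adjusted p up to 0.05 with no fold threshold. CPM and FPKM were computed from the counts, and log2 CPM used a prior count of 2. The interaction is the GFI1 effect in floating cells minus that in attached cells.

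The members and gene lists were chosen with earlier results of these data known. The text names GFI1, the 8 members, ITGB1, LAMA3, LAMB3, from each list and comparison the called gene of lowest adjusted p upward and downward, and the 3 genes most like ITGA6 and ITGB4. LAMA4, METTL7B, POLR2L, KRT5, KRT14, KRT19, CD3E, DCN and the epithelial markers are named outside this rule, as are the 19 genes whose GFI1 effect differed between states, listed in the closing section. Alternatives were DESeq2 1.42.0, RLE, upper quartile and library size scaling, other filters, robust empirical Bayes, a fit to the compared groups alone, a 2-fold threshold, the longest transcript for FPKM, a replicate block and leaving out each library. The code was tested on simulated data. The values of 1 listed gene, which enters the counts over lists, are not reported here.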

Additional observations from a re-analysis of the deposited data

Results flagged for a closer look

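For 19 of the genes described the GFI1 effect differed between floating and attached cells by the test of the difference itself. On the log2 scale the difference, floating minus attached, was -0.70 for ITGB4, -1.24 for COL17A1 and 0.27 for DST among the members. For ITGB4 the GFI1 effect was 0.73 in attached and 0.031 in floating cells, for COL17A1 -2.00 and -3.24, and for DST 0.61 and 0.87. The difference was -0.47 for LAMA3 and -0.77 for LAMB3, and ITGB1 had -0.17. The other laminin chains with a difference were LAMB1 (-0.45), LAMB2 (-0.43) and LAMC1 (0.32). Basement membrane proteins had 0.45 for COL4A1, 0.30 for COL4A2, 0.37 for COL7A1 and 0.84 for NID2. The plakins had 0.28 for DSP, -0.49 for EVPL, 0.37 for MACF1 and -0.49 for PPL. The DSP call was lost without attached control replicate 2, attached GFI1 replicate 1, floating control replicate 2 or floating GFI1 replicate 2 (0.18 to 0.26, adjusted p from 0.0549 to 0.0759), and the PPL call with robust empirical Bayes (adjusted p = 0.0929). The remaining 2 were KRT8 (0.38) and SDC1 (0.26). Among the members, ITGB4 and COL17A1 had also risen with suspension in control cells.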

How the results depend on the processing

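Leaving out 1 library at a time gave 5 to 6 members higher and 2 lower with GFI1 when attached, and 5 to 6 higher and 2 to 3 lower when floating. It gave 3 and 2 with suspension in control cells, 1 to 3 higher and 1 to 3 lower in GFI1 cells, and 0 to 2 higher and 1 to 2 lower for the interaction. The interaction had 2 members higher with no filter on low counts, with robust empirical Bayes, with the replicate block and with DESeq2, since CD151 passed (0.21 with the replicate block, adjusted p = 0.0309), and 1 lower with robust empirical Bayes. The lower members with suspension in GFI1 cells numbered 1 under upper quartile scaling, with no filter and with only the groups compared. COL17A1 was not tested when 10 counts were required in every library, which left 1 lower member with GFI1 when attached, 1 when floating and 1 for the interaction.

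A 2-fold threshold left 1 member higher in attached and 1 in floating cells with GFI1. With suspension it left 0 lower in control cells and 0 higher and 0 lower in GFI1 cells. The interaction kept 0 higher and 1 lower. ITGA6 and COL17A1 stayed lower with GFI1 in both states, and ITGB4 and COL17A1 stayed higher with suspension in control cells. Of the pathway genes the threshold left 4 higher and 9 lower with GFI1 when attached and 5 and 9 when floating. With suspension it left 0 and 2 in control cells and 1 and 0 in GFI1 cells, and the interaction kept 0 and 0. Over all 17829 genes tested, it left 1730 higher and 1517 lower with GFI1 when attached and 1505 and 1573 when floating. All genes had 660 and 249 with suspension in control cells, 353 and 147 in GFI1 cells, and 95 and 146 for the interaction.

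Directions turned for the following values, of which 1 (ITGB4) passed the test after turning. When 1 library was left out, ITGB4 with GFI1 in floating cells ran from -0.17 to 0.18. With suspension in control cells ITGA3 ran from -0.047 to 0.0014, ITGA7 from -0.029 to 0.44 and NID1 from -0.13 to 0.15. With suspension in GFI1 cells COL17A1 ran from -0.13 to 0.39 and SDC1 from -0.027 to 0.039. For the interaction ITGA3 ran from -0.099 to 0.0060, ITGA7 from -0.15 to 0.32, PLEC from -0.032 to 0.035, PTGFRN from -0.071 to 0.027 and HSPG2 from -0.11 to 0.011. PLEC turned to 0.012 for the interaction with no filter. For these the cause was not tested.

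Library size in place of TMM moved the median of all genes by 0.14 with GFI1 (7001 higher and 4375 lower calls in attached cells against 5258 and 5844), and no member's call or direction changed. Same-numbered libraries did not deviate together (correlations from -0.031 to 0.031, 0 of 18 pairs over 0.1, 5 best matches). The check gave no sign that the numbers pair the libraries, and it cannot exclude that they do. Counts of 9 to 152 limit COL17A1 and ITGA7.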
